A study of Drosophila melanogaster with 2 samples.

Results

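Mitochondrial ribosomal protein genes were taken as all protein-coding genes of the Ensembl annotation of Drosophila melanogaster whose symbols start with mRpL or mRpS. The rule gave 73 of 13945 protein-coding genes, 47 with mRpL symbols (large subunit) and 26 with mRpS symbols (small subunit). The subunit was taken from the symbol, although in mammals the counterparts of mRpS30 and mRpS18A sit in the large subunit. Their transcription start sites (TSSs) were compared with ChIP-seq peaks of Hr83, an orphan nuclear receptor related to Tailless. The material was whole larvae, wandering and in the third instar, of the strain Hr83-GFP, males and females pooled, of unstated age, from a line that stably carries Hr83 with GFP at its C-terminus, and chromatin was sonicated and precipitated with an antibody against GFP. All samples belonged to 1 group with 2 biological replicates, which the labels number 3 and 4, so no condition was compared and both replicates carried the tagged protein. Whole larvae mix all tissues, so the cells in which a region was bound cannot be told apart. The files held 1 thresholded list of 4797 peaks, kept by the authors for agreement between replicates by irreproducible discovery rate (IDR), and relaxed lists of 30000 regions for each replicate and for both pooled. Each region had a summit and a signal, the authors' score for that region, and the depth of sequencing is unknown.

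The mitochondrial ribosome translates the few proteins that are encoded in mitochondrial DNA, nearly all of them core subunits of the respiratory chain and of ATP synthase. Its proteins are encoded by nuclear genes, made in the cytosol and imported, and they assemble on ribosomal RNAs transcribed inside the organelle. Some descend from bacterial ribosomal proteins and keep their numbers, while others have no bacterial counterpart and were added during the evolution of mitochondria. In flies, mutations in mitochondrial ribosomal protein genes such as bonsai and technical knockout (tko) slow larval growth or cause bang-sensitive seizures.

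The genomic sequence at 4 of the strongest member peaks is given first, to show what lay under the summits. Each runs 5′ to 3′ on the strand of the member gene, on dm6, around the summit, and capitals mark the letters of the core promoter E-box, CAGCTG, where they occurred.
mRpS23 (chr2L:13835382-13835531, minus strand): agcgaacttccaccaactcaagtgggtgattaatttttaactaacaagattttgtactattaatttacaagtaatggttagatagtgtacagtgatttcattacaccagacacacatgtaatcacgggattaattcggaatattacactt
mRpS10 (chr3R:15229441-15229590, plus strand): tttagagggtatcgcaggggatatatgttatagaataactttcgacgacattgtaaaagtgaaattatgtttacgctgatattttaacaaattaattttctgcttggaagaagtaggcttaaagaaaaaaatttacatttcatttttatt
mRpL47 (chr3R:9515907-9516036, minus strand): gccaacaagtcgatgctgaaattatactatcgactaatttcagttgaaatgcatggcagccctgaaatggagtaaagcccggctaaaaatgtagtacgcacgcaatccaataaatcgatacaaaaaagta
mRpS6 (chr3L:4364434-4364579, plus strand): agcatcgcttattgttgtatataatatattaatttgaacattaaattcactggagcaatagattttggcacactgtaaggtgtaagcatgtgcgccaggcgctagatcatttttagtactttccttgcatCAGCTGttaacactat

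The E-box letters occurred in the mRpS6 window, downstream of the summit near the TSS, and in none of the windows of mRpS23, mRpS10 and mRpL47 as printed. No copy of TATCGATA, the DNA replication-related element (DRE) of many housekeeping promoters, of AAGTCA, the hexamer bound by NR2E receptors, or of GAGAGAG, the GAGA element, lay within 100 bp of these 4 summits.

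Promoter sequences with a DRE near the TSS are shown next for members with a thresholded peak, because the DRE was one of the motifs more frequent at member promoters than at promoters of all genes. Each begins 120 bases before the TSS and ends 30 bases into the transcript, and capitals mark TATCGATA and, in mRpL17, also CAGCTG.
mRpS23 (chr2L:13835043-13835192, minus strand): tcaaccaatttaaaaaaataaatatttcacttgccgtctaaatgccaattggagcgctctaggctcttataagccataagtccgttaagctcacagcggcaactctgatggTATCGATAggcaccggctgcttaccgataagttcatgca
mRpL17 (chr3L:264659-264808, plus strand): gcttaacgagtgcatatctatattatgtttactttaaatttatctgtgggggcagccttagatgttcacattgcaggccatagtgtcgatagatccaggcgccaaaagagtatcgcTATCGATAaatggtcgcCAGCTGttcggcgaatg
mRpL20 (chr3L:13017838-13017987, minus strand): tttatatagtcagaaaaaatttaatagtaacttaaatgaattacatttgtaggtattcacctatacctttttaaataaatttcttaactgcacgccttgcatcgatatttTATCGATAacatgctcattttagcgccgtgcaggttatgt
mRpL10 (chr2L:203659-203808, plus strand): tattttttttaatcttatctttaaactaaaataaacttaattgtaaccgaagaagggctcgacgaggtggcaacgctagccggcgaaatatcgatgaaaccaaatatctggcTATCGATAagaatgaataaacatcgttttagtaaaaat
mRpL39 (chr3L:14999637-14999786, minus strand): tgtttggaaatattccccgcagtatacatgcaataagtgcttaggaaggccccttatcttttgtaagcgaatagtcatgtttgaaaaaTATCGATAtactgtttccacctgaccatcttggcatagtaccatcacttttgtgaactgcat
mRpL4 (chr2L:16329103-16329252, minus strand): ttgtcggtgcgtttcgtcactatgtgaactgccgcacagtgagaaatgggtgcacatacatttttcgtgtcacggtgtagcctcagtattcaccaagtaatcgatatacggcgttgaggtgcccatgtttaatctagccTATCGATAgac

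The DRE began 9 bases before the TSS of mRpS23, 4 before that of mRpL17, 10 before that of mRpL20 and 8 before that of mRpL10. It began 32 bases before the TSS of mRpL39 and lay inside the transcript at mRpL4. mRpS23 also held a second copy farther upstream.

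The next sequences show 3 members whose promoters held AAGTCA within 100 bp of the summit, with capitals marking AAGTCA or its reverse complement TGACTT. The windows are placed as above, shortened at mRpS11.
mRpL9 (chr3R:15330618-15330767, plus strand): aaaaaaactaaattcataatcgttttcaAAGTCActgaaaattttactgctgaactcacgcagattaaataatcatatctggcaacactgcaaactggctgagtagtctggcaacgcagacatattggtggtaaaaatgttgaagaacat
mRpL36 (chr3L:8125103-8125252, minus strand): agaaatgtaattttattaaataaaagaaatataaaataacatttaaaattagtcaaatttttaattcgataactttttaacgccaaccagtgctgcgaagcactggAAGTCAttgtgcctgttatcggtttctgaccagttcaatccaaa
mRpS11 (chr3R:17072646-17072761, plus strand): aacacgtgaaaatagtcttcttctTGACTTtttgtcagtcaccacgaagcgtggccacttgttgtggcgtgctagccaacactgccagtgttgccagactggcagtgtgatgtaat

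Last are members without a thresholded peak, or with 1 of the weakest (mRpL28), to show that the same letters occurred there. Capitals mark TATCGATA and CAGCTG, and mRpL30 held neither.
mRpL28 (chr2L:4973892-4974005, plus strand): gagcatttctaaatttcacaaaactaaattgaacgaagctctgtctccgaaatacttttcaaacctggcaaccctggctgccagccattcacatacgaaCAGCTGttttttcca
mRpL19 (chr3R:8673989-8674138, plus strand): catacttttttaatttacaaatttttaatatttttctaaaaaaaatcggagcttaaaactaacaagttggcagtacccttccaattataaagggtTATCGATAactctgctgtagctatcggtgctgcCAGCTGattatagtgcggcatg
mRpS33 (chr3R:16436568-16436717, minus strand): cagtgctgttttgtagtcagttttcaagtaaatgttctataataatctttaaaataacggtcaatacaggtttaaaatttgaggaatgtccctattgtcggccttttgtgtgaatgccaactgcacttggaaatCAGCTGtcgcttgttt
mRpS34 (chr3L:16347954-16348103, plus strand): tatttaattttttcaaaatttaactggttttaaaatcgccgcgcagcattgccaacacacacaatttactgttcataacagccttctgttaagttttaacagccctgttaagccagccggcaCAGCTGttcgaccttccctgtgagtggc
mRpL14 (chrX:2344620-2344769, minus strand): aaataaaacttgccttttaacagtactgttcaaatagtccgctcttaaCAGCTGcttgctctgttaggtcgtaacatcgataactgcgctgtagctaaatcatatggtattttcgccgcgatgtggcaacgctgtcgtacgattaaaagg
mRpL3 (chrX:15761128-15761277, plus strand): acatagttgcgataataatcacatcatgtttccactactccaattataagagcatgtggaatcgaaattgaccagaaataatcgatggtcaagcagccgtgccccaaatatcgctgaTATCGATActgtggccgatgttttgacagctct
mRpL30 (chrX:4647751-4647900, plus strand): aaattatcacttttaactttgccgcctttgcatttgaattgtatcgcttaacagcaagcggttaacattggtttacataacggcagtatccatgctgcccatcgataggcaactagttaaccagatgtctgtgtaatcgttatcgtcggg

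A thresholded peak had its summit within 1 kb of a TSS at 35 of the 73 members, or 47.9% (95% Clopper-Pearson interval 36.1% to 60%). Over all protein-coding genes the share was 27.3%. Among large subunit genes it was 25 of 47, or 53.2% (38.1% to 67.9%), and among small subunit genes 10 of 26, or 38.5% (20.2% to 59.4%), so the intervals of the subunits overlapped and that of the small subunit included the value of all genes. Intervals cover counting error over genes, which are not replicates. No peak was shared by 2 members.

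In the relaxed list of the pooled replicates, 65 of the 73 members had a region within 1 kb, or 89.0% (79.5% to 95.1%), beside 62.3% of all protein-coding genes. Replicate 3 alone gave a region at 64 members, or 87.7%, against 61.0% of all genes, and replicate 4 alone also at 64, against 62.3%. Both replicates had a region at 58 members, or 79.5% (68.4% to 88.0%), against 51.6% of all genes, 12 members had a region in 1 replicate, and 3 (mRpL14, mRpL30 and mRpS28) had one in neither. The excess over all genes was thus present in each list.

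**Figure D1:**
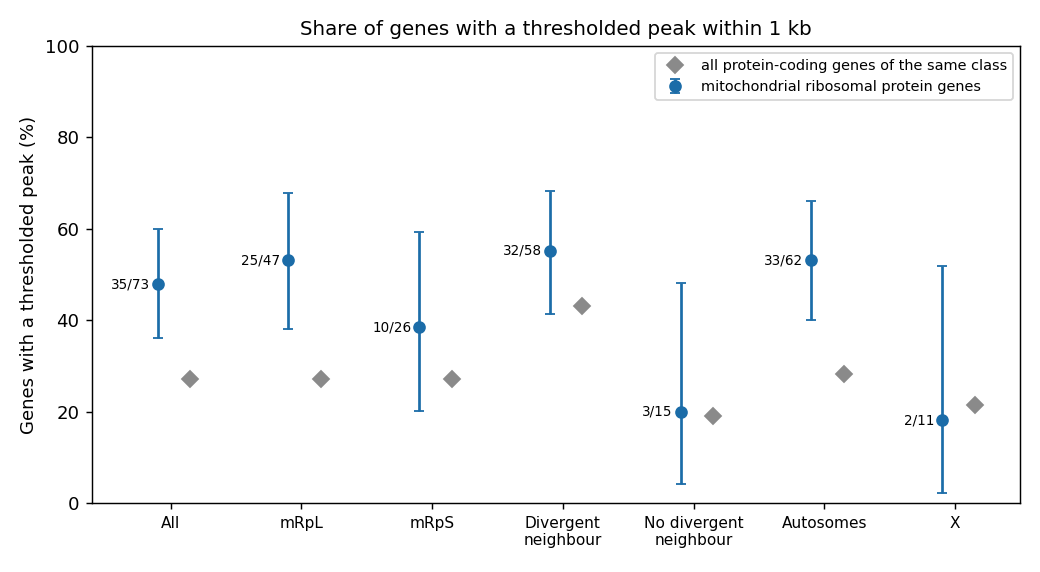
Share of genes with a thresholded peak within 1 kb of a TSS (percent, vertical axis) for all members and for subsets of them; circles are the members with 95% Clopper-Pearson intervals and counts, diamonds all protein-coding genes of the same class. Members with a divergent coding neighbour reached 55.2% and those without one 20%, while the diamonds for the same classes stood at 43.1% and 19.1%.

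The peaks at members were of middling strength. The strongest thresholded peak of each of the 35 genes had a median signal of 91.2 (lowest 65.1, highest 593), beside a median of 102 for the 3805 protein-coding genes with a peak and 93.8 for all thresholded peaks. The median rank of the member peaks was 2529, with 1 the strongest, against 2004 for all genes with a peak. The first 100 ranks included 3 members (8.57% of the 35, beside 2.76% of all genes with a peak). In the stronger part of the list, above its median rank, were 16 of the 35 (45.7%), beside 58.2% of all genes with a peak. The largest values belonged to few genes, and 26 of the 35 ranked beyond the first 1000. The first 1000 held 9 of the 35 (25.7%), close to the 28% of all genes with a peak.

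**Figure D2:**
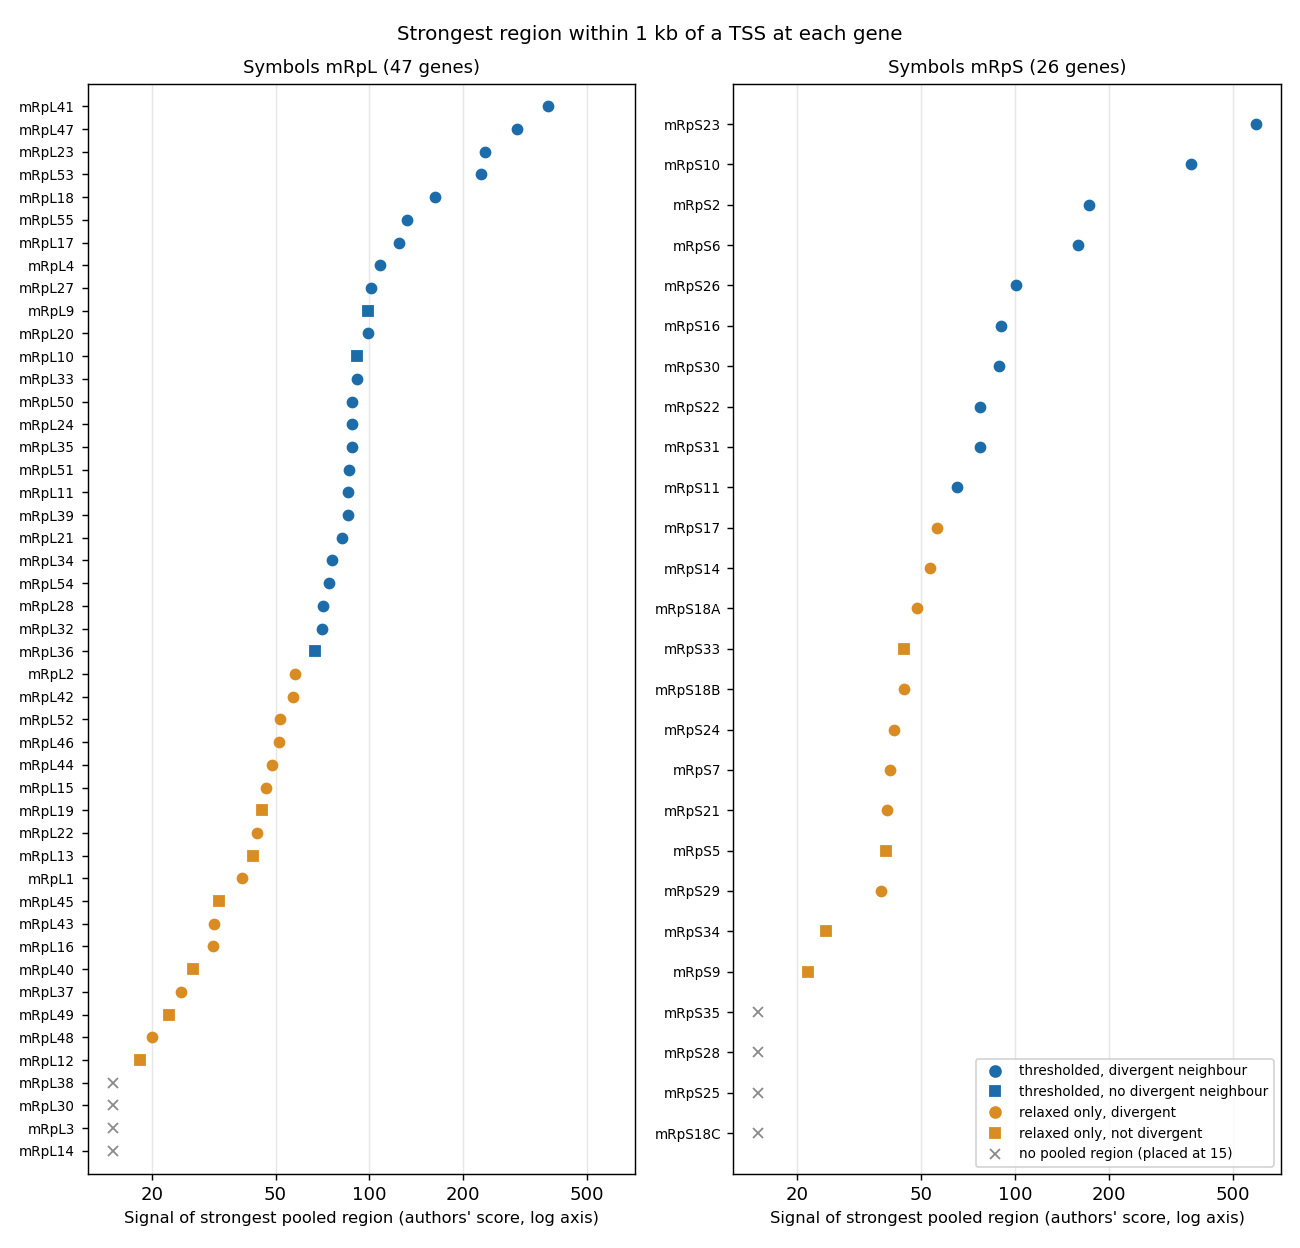
Signal of the strongest pooled region within 1 kb of a TSS at each of the 73 members (authors' score, log axis), large subunit on the left and small subunit on the right; colour gives the list, shape tells whether a divergent coding neighbour was present, and crosses are members without a pooled region. Signals ran from 593 at mRpS23 to 18.3 at mRpL12, and the blue and orange points part between 65.1 and 57.8.

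The strongest member peak was at mRpS23 (FBgn0260407), a small subunit protein with no bacterial counterpart, at chr2L:13835366-13835551 on dm6. It had a signal of 270 in replicate 3 and 336 in replicate 4, where it ranked 22 and 17, and 593 in the thresholded list, where it ranked 20 of 4797. Its ranks were among the highest of the list in both replicates. The summit lay 384 bp upstream of the mRpS23 TSS and 108 bp from the TSS of CenG1A, which encodes an Arf GTPase-activating protein and is transcribed away from mRpS23.

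The next peaks were at mRpL41 (FBgn0034001) and mRpS10 (FBgn0038307). mRpL41 belongs to the large subunit proteins without a bacterial counterpart, and its peak had signals of 211 and 163 in replicates 3 and 4, ranks of 36 and 140, and a thresholded signal of 376 at rank 48. mRpS10, whose bacterial counterpart lies in the head of the small subunit, had signals of 203 and 160, ranks of 39 and 142, and a thresholded signal of 369 at rank 55. Both ranked higher in replicate 3. The summits lay 155 bp and 149 bp upstream of the respective TSS, the second between mRpS10 and the arginine methyltransferase gene Art3, 108 bp from the Art3 TSS. The nearest other TSS to the mRpL41 summit, 423 bp away, was that of the noncoding gene lncRNA:CR44463.

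Several members belong to the polypeptide exit tunnel, the channel through which the growing chain leaves the large subunit, or to its rim. Those described here were picked after the values were seen and are not a full list. mRpL47, the counterpart of bacterial L29 at the tunnel exit, had a thresholded signal of 299 (rank 109; ranks 224 and 64 in replicates 3 and 4) at a summit 73 bp upstream and 26 bp from the TSS of CG8176. mRpL23 had 236 (rank 204; 250 and 228) at a summit in its 5′ UTR, 53 bp downstream of its TSS and 103 bp from that of CG9004. mRpL4 had 108 (rank 1778) and mRpL24 had 87.9 (rank 2707), while mRpL22 had only a relaxed region, with a pooled signal of 43.7, as did mRpL45, which in mammals lies at the exit, with 33.0. mRpL47 was 1 of 2 members with a further thresholded peak within 1 kb, at a signal of 88.3 and 704 bp upstream.

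Of the large subunit stalk proteins, which in bacteria recruit translation factors, mRpL10 had a signal of 91.5 (rank 2511) and mRpL11 of 85.6 (rank 2848). mRpL12 had only a relaxed region, at 18.3, the lowest of all members with one, seen in replicate 4 and not in replicate 3. mRpL1, whose bacterial counterpart forms the mobile stalk where tRNA leaves, also had only a relaxed region, at 38.9. mRpL2 and mRpL3, whose bacterial counterparts border the peptidyl transferase centre, had no thresholded peak. mRpL27, whose bacterial counterpart reaches into that centre, had a peak of 101, but its summit lay 742 bp downstream of its TSS, in its 3′ UTR, and 496 bp from the TSS of RpL27A, which encodes a cytosolic ribosomal protein.

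The remaining large subunit genes among the 10 strongest were mRpL53, mRpL18 and mRpL55. mRpL53 ranked 800 in replicate 3 and 130 in replicate 4, with a thresholded signal of 228 at a summit 80 bp upstream, in the 170 bp between its TSS and that of AGO1, the argonaute of the microRNA pathway. It was equally far from a TSS of CG33155. mRpL18, whose bacterial counterpart binds 5S ribosomal RNA, had a signal of 162, and its summit lay 135 bp upstream and 115 bp from the TSS of Taz, encoding the cardiolipin-remodelling enzyme tafazzin. The peak counted for mRpL55, at 132, lay 633 bp downstream of the mRpL55 TSS and 2 bp from the TSS of cdi, a kinase gene. It lay nearer to the cdi TSS than to the promoter of mRpL55, whose divergent neighbour is ATPsynD, a subunit gene of ATP synthase.

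Among the other small subunit genes, mRpS2 had a signal of 173 (rank 538; 1101 and 399 in replicates 3 and 4) at a summit 201 bp upstream, 21 bp from the TSS of Mon1, which acts in endosome maturation. For the platform, the part of the small subunit beside the mRNA exit, mRpS6 had a signal of 160 (rank 673; 807 and 1038) at a summit 41 bp upstream, and a further peak of 114 lay 496 bp upstream on the side of Cip4. mRpS11, also of the platform, had the weakest member peak, at 65.1, and mRpS21 and mRpS18C, of the same part, had none on the thresholded list. In the head, mRpS10 was the strongest of those named here, since mRpS7, mRpS14, mRpS9 and mRpS29, the counterpart of mammalian DAP3, had relaxed regions of 39.7, 53.3, 21.7 and 37.2.

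The weakest thresholded peaks were those of mRpL54 (74.1), mRpL28 (70.8), mRpL32 (70.6), mRpL36 (66.7) and mRpS11 (65.1). The nearest other TSS to the summit was that of CG15653 at mRpL54 (53 bp), of qless, an enzyme gene of coenzyme Q synthesis, at mRpL32 (130 bp), of CG7550 at mRpL36 (617 bp) and of Ns1, which encodes a nucleostemin, at mRpS11 (29 bp), and at mRpL28 the divergent neighbour's was 56 bp away. Just short of the list were the relaxed regions of mRpL2 (57.8, pooled rank 5534), mRpL42 (57.0), mRpS17 (56.4), mRpS14 (53.3) and mRpL52 (51.6). Over the 30 members with only a relaxed region, the pooled signal ran from 18.3 to 57.8 with a median of 40.3, beside 33.5 for the 4878 protein-coding genes of that kind. The 1 kb limit divided few genes: the next summits outside it were 1203 bp from mRpL52 (signal 74.5), 1304 bp from mRpS35 (92.1) and 1458 bp from mRpL13 (168), and the farthest inside, taking the strongest peak of each gene, were those of mRpL27 and mRpL55.

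Peaks were found at members with and without bacterial numbering. Members whose number falls in the bacterial range (up to 36 for the large and 21 for the small subunit, a division made after the values were seen) had a peak in 22 of 42 cases, or 52.4% (36.4% to 68.0%). The others, most of them without a bacterial counterpart, had one in 13 of 31 cases, or 41.9% (24.5% to 60.9%), and these intervals overlapped. The value of all genes, 27.3%, lay below the former interval and inside the latter.

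Summits lay mostly upstream of the members. The median distance from TSS to summit was 135 bp, beside 87 bp for all genes with a peak, and the summit was upstream at 30 of 35 members (85.7%) against 75.4%. It was within 100 bp at 16 (45.7% against 53.0%) and within 500 bp at 32 (91.4% against 83.2%). In relation to the member's own gene model, 31 summits lay outside it, 3 in the 5′ UTR (mRpL23, mRpS22 and mRpL28) and 1 in the 3′ UTR (mRpL27). Places in the gene model were not counted over all genes with a peak. More than 1 thresholded peak within 1 kb was found at 2 members, mRpL47 and mRpS6 (5.71% of those with a peak), beside 20.7% of all genes with a peak.

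Divergent promoters were frequent among the members. A coding neighbour on the other strand, with a TSS at most 1 kb upstream, was present at 58 of 73 members (79.5%) and at 34.1% of all protein-coding genes. With such a neighbour, 32 of 58 members had a thresholded peak, or 55.2% (41.5% to 68.3%), against 43.1% of all genes of that kind. Without one, 3 of 15 did, or 20% (4.33% to 48.1%), against 19.1%. For thresholded peaks, the interval of the members included the value of all genes within each class. The gap between members and all genes was there smaller within either class than over all members. In the pooled relaxed list the shares of members in the classes were close. A region was found at 52 of 58 members with a neighbour (89.7%, interval 78.8% to 96.1%, against 80.3% of all such genes). Without a neighbour it was 13 of 15 (86.7%, interval 59.5% to 98.3%, against 52.9%), with the interval above the value of all such genes. Regions in both replicates were found at 49 of 58 members with a neighbour (84.5%, interval 72.6% to 92.7%, against 71.5%). Here the interval lay above the value of all such genes. Without a neighbour it was 9 of 15 (60%, interval 32.3% to 83.7%, against 41.3%), and the interval included that value.

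A peak at a divergent pair was also counted for the neighbour in each case. Of the 58 pairs, both genes had a peak in 32, neither in 25, and in 1 only the neighbour did, the forkhead gene FoxK beside mRpL2. Such agreement is likely by construction, since paired TSSs and the peak window both have a limit of 1 kb. It was not counted over all divergent pairs. The nearest thresholded summit lay 1896 bp from the mRpL2 TSS, and the paired FoxK TSS 64 bp from it. The FoxK peak was thus counted from another FoxK TSS. In the 32 pairs the summit was nearer the neighbour's TSS in 18 (56.2%, against 48.1% of the 2049 protein-coding genes with such a pair and a peak) and nearer the member's in 14. It lay between the TSSs in 22 (68.8% against 61.0%). The median gap between the TSSs was 271.5 bp, against 321 bp. The summit was a median of 164 bp from the member's TSS (154 bp over all such genes) and 105 bp from the neighbour's (141 bp). Which gene of a pair a peak belongs to cannot be told apart from these lists.

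Neighbours differed in function. Genes of mitochondrial proteins were among them: besides Taz, qless and ATPsynD, named above, these included HtrA2, a mitochondrial protease, beside mRpL11, and Mitofilin, of the complex that shapes the inner membrane, beside mRpL35. Others were Prosbeta2, a proteasome subunit gene, beside mRpL39 (signal 85.5), norpA, the phospholipase C of phototransduction, beside mRpL33 (91.2), Dg, encoding dystroglycan, beside mRpL34 (75.8), and mei-P22, required for meiotic DNA breaks, beside mRpL50 (88.3). In the norpA pair the summit was 32 bp from the neighbour's TSS, and in the mei-P22 pair it was 37 bp from the member's. The genes named here were picked after their values were seen, as neighbours with a known role.

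Over all 35 members with a peak, the member's TSS was the nearest of any gene at 14, another gene's was nearer at 20, and at mRpL53 both were equally near. Another coding TSS lay within 1 kb of the summit at 33, and at mRpL9 and mRpL10 no other TSS of any gene did. These counts were not made over all genes with a peak, so they have no value beside them. A divergent coding neighbour was present at 32 of the 35, which makes another TSS near the summit likely by construction. mRpL9 had a signal of 99.3, a summit 79 bp upstream and ranks of 3085 and 3333 in replicates 3 and 4. mRpL10 had a signal of 91.5, a summit 59 bp upstream and ranks of 5053 and 2400. These 2 peaks were the ones that could be counted for a member alone, and mRpL36 (66.7, 16 bp upstream) was the only further one without a divergent neighbour.

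On the X chromosome, 2 of 11 members had a thresholded peak, or 18.2% (2.28% to 51.8%), against 21.6% of all X-linked protein-coding genes. The 2 were mRpL33 (91.2) and mRpS30 (88.7). In the pooled relaxed list 6 of 11 had a region, or 54.5% (23.4% to 83.3%), against 52.6%. On the autosomes, 33 of 62 members had a thresholded peak, or 53.2% (40.1% to 66.0%), against 28.4% of autosomal genes, and 59 had a pooled region, or 95.2% (86.5% to 99%), against 64.1%. The excess of the members over all genes was therefore seen on the autosomes, where the intervals lay above the value of all genes. On X it was not detectable with 11 genes. By arm, a thresholded peak was found at 8 of 12 members on 2L (all genes there 25.1%), 6 of 12 on 2R (29.9%), 10 of 17 on 3L (29.1%) and 9 of 21 on 3R (29.1%).

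The 8 members without a pooled relaxed region were mRpL3, mRpL14, mRpL30, mRpL38 and mRpS25 on X, mRpS18C on 3R, mRpS28 on 2R and mRpS35 on 3L. Some had a region in 1 replicate: replicate 4 listed mRpL3 at rank 7109 and mRpL38 at 15705, and replicate 3 listed mRpS18C at 9324, mRpS35 at 23731 and mRpS25 at 27846. The authors describe the relaxed lists as peaks and background, so a region at such a rank says little of binding, and the missing of one does not show that a promoter was unbound.

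All 35 member peaks overlapped a region in both replicates. The rank of a peak differed between replicates by a median factor of 1.79, beside 2.0 for the 4690 thresholded peaks found in both, and the factor was above 2 at 17 (48.6% against 49.8%) and above 4 at 6 (17.1% against 18.1%). The spread between replicates at members was thus close to that of all peaks.

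The largest factors were 10.5 at mRpS11, which ranked 2341 in replicate 3 (signal 41.2) and 24487 in replicate 4 (10.6), 6.22 at mRpL20 (1791 and 11132) and 6.15 at mRpL53 (800 and 130). The rank was better in replicate 3 at 22 of 35 members (62.9%), beside 49.0% of all thresholded peaks. Of the 35 peaks, 32 were among the 4797 strongest regions of replicate 3, 26 among those of replicate 4, 24 in both and 1, mRpL34, in neither. These counts were not made over all thresholded peaks, so they have no value beside them.

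**Figure D3:**
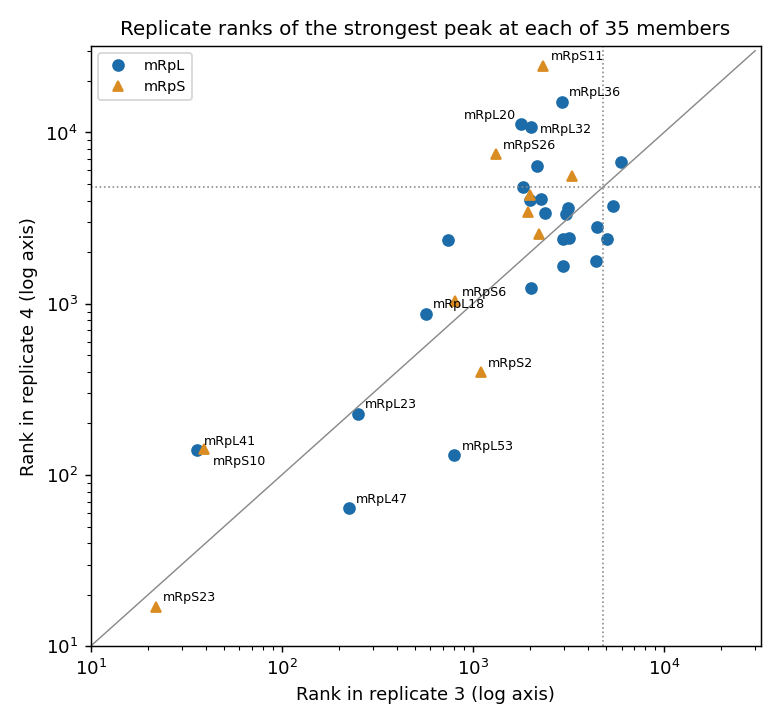
Rank of the 35 member peaks in replicate 3 (horizontal) and replicate 4 (vertical), log axes, 1 being the strongest; circles are large and triangles small subunit genes, the solid line marks equal ranks and the dotted lines rank 4797. mRpS23 sat at 22 and 17, and mRpS11 at 2341 and 24487.

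Taking the 4797 strongest regions of each replicate on its own, 33 members had a region within 1 kb in replicate 3 (45.2% against 26.4% of all genes) and 29 in replicate 4 (39.7% against 26.3%). Both lists held 24 (32.9% against 20.1%).

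Other genes of mitochondrial gene expression, and of the import machinery that brings these proteins in, had thresholded peaks about as often as all genes. Over 5 lists with 53 genes, 16 had a thresholded peak, or 30.2%, near the 27.3% of all genes, but among peaks above the median rank it was 5, or 9.43% against 15.9%. Of the 2 mitochondrial ribosomal protein genes with other symbols, tko, the counterpart of bacterial S12, had a signal of 85.4 (rank 2865; 2352 and 2288 in replicates 3 and 4) at a summit 30 bp upstream, and bonsai, the counterpart of S15, had only a relaxed region of 24.4. Of 8 translation factor genes 1 had a peak, mEFTu2 (72.4), an elongation factor that delivers aminoacyl-tRNA. Of 15 mitochondrial aminoacyl-tRNA synthetase genes 3 did, LeuRS-m (92.4), ArgRS-m (92.3) and PheRS-m (86.8). Of 14 genes of mitochondrial DNA and RNA synthesis 6 did, with mtSSB, the single-stranded DNA binding protein of the organelle, at 331 (rank 86), SLIRP2, related to an RNA stability factor, at 188, and mtTFB1, a methyltransferase of the small ribosomal RNA, at 108. Of 14 protein import genes 5 did, with the matrix chaperone gene Hsc70-5 at 151, Tom7 of the outer membrane translocase at 144 and Tim9a, an intermembrane space chaperone, at 88.8.

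Cytosolic ribosomal protein genes more often had a peak than the members: 68 of 86 had a thresholded peak, or 79.1% (69.0% to 87.1%), at a median signal of 171, and 52 had a divergent coding neighbour. Oxidative phosphorylation subunit genes had one in 28 of 87 cases, or 32.2% (22.6% to 43.1%), at a median of 112, and 41 had such a neighbour. The share among mitochondrial ribosomal protein genes, 47.9%, lay between these, with an interval that did not overlap that of the cytosolic ribosomal protein genes and overlapped that of the oxidative phosphorylation genes.

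Some motifs were more or less frequent at member promoters than at all promoters, and the choice of genes did not use them. Letters were searched on both strands from 250 bp before to 50 bp after the main TSS, and a match is a description of the sequence and not of binding. CAGCTG was present at 40 of 73 member promoters (54.8%) against 17.9% of all protein-coding promoters, and at 22.3% of promoters with a divergent neighbour. It occurred at 22 of the 38 members without a thresholded peak (57.9%) and at 18 of the 35 with one (51.4%). It was present at 8.14% of cytosolic ribosomal protein promoters, 26.4% of oxidative phosphorylation promoters, 5 of 8 translation factor promoters and 7 of 15 synthetase promoters. Of the 45 copies at members, 23 began after the TSS (51.1%, against 22.1% of copies at all promoters), and their median start was 2 bp after the TSS, against 53 bp before it. The letters stand at such places in mRpL17, mRpL28, mRpL19 and mRpS33 as printed.

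The DRE was present at 15 of 73 member promoters (20.5%) against 8.94% of all promoters and 16% of divergent ones, with 7 of 35 (20%) at members with a peak and 8 of 38 (21.1%) at those without. Cytosolic ribosomal protein promoters held the DRE more often (29.1%), as did translation factor promoters (5 of 8), and oxidative phosphorylation promoters less often (9.2%). Of the 16 DRE copies at members, 12 began in the 50 bp before the TSS (75% against 44.0% of copies at all promoters). In the 200 bp around the summit it was found at 4 of 35 member peaks (11.4%), those of mRpL55, mRpL4, mRpL10 and mRpL39, against 9.0% of the 3378 thresholded peaks within 1 kb of a coding TSS. The promoter of mRpS23, with the strongest peak, held 2 copies, and the promoter of mRpL3, without a pooled region, held 1.

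AAGTCA, the hexamer of the receptor class of Hr83, was present at 9 of 73 member promoters (12.3%) against 16.2% of all promoters. The split by peak was 7 of 35 (20%) with and 2 of 38 (5.26%) without a thresholded peak, while over all genes it was 12.6% with and 17.5% without. Around the summit it was found at 5 of 35 member peaks (14.3%), those of mRpL17, mRpL9, mRpL54, mRpL36 and mRpS11, against 8.11% of thresholded peaks near coding TSSs. These are counts of few genes, and mRpL36 and mRpS11 were among the members whose ranks differed most between replicates. The related AGGTCA was found at 1 member promoter (1.37% against 5.81%), and TCAAGGTCA, the element of the estrogen-related receptor, which contains AGGTCA, at 0 of 73 (0.136% of all promoters).

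GAGAGAG was present at 1 member promoter (1.37% against 6.20% of all promoters and 3.2% of divergent ones). Cytosolic ribosomal protein promoters (0 of 86) and oxidative phosphorylation promoters (1.15%) also seldom held GAGAGAG. Around the summit GAGAGAG was found at 0 of 35 member peaks, against 11.8% of the thresholded peaks near coding TSSs. Of other core promoter elements, Ohler motif 7 was found at 16 members (21.9% against 9.14%) and Ohler motif 6 at 3 (4.11% against 2.11%). Motif 1, searched as GTCACACT, was found at 8 (11% against 6.45% of all promoters and 11.1% of divergent ones). The nuclear respiratory gene element of flies, searched only as TTACGTAA, was found at 2 (2.74% against 0.48%). TGCGCA, the core of the mammalian nuclear respiratory factor 1 site, was found at 6 (8.22% against 7.02%). CACGTG, the Myc E-box, was found at 5 (6.85% against 4.26%) and CACACACA at 4 (5.48% against 4.41%). The median GC content of member promoters was 34.7%, against 38% for all, and its part in these shares was not tested.

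**Figure D4:**
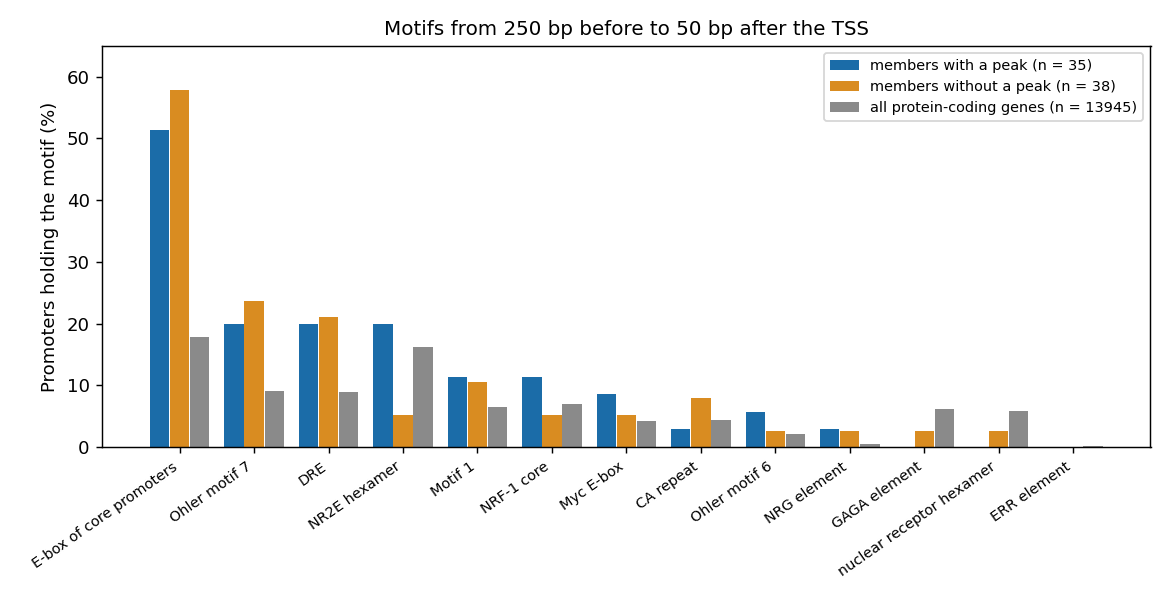
Share of promoters (percent, vertical axis) from 250 bp before to 50 bp after the TSS that held each of 13 motifs on either strand: members with a thresholded peak (blue, 35 genes), members without (orange, 38 genes) and all protein-coding genes (grey, 13945 genes). The core promoter E-box stood at 51.4% and 57.9% in the members and 17.9% in all genes, and AAGTCA at 20% and 5.26% in the members and 16.2% in all genes.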

How the data were processed

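ChIP-seq regions on dm6 came from 2 biological replicates of 1 group. The authors' notes with the samples say that an alignment of a control entered each relaxed list, and that the thresholded list was derived by IDR from both replicate lists and the pooled one. The deposited signal (column 7 of the layout) is the authors' own score per region. It is not normalized between lists, so regions were compared by it within a list only. Neither an aligner nor a peak caller is named: these were not given in the sources used here. No read counts were in the lists, so depth is unknown. Lists on dm3 were not used.

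A gene counted as having a peak when a summit (start plus column 10) lay within 1 kb of any of its TSSs in Ensembl release 115. Coordinates are 1-based. A divergent neighbour is a coding gene on the other strand with any of its TSSs at most 1 kb upstream of the gene's canonical TSS. Sequences were read from the RefSeq genome of the same assembly, and 13 motifs were searched on both strands. Intervals are 95% Clopper-Pearson intervals and cover counting error only. No p-value was computed, since there was 1 group and genes are not replicates. Replicate regions were matched by an overlap of at least 1 bp. The counting was tested on simulated data.

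The members, the 5 mitochondrial lists with 53 genes, the motifs and the rule for named genes were chosen with earlier results of these data known. That rule took the 10 strongest and 5 weakest peaks, the 5 strongest relaxed regions without a peak, members with more than 1 peak or without a pooled region, the 3 largest replicate rank factors, and summits with a DRE. It also took the neighbours at those peaks, up to 3 genes per list, and tko and bonsai. Members named by role, neighbours by function and the E-box and divergent neighbour alternatives were chosen after their values were seen. Of the list symbols, mEFG2, mtRF1, Tim14, Tim44 and Tim50 were not matched in the annotation. Twinkle, Mterf3 and Mterf5 were further spellings of genes that the lists hold as mtDNA-helicase, mTerf3 and mTerf5. Tools were Python 3.11.15, NumPy 2.4.6, pandas 2.3.3, SciPy 1.17.1 and matplotlib 3.10.9.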

Additional observations from a re-analysis of the deposited data

How the results depend on the processing

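The count of 35 members with a thresholded peak stayed within 1.5 times of itself for TSS windows of 250 bp (25), 500 bp (32), 2 kb (41) and 5 kb (49), for the canonical TSS only (35) and for overlap of the peak interval (35). The share of members exceeded that of all genes in each, with 34.2% against 20.9% at 250 bp and 67.1% against 45.2% at 5 kb. With only the peaks above the median rank the count fell to 16 members (21.9% against 15.9% of all genes), with 11 large and 5 small subunit genes, 5 genes of the mitochondrial lists (9.43% against 15.9%) and a median member signal of 161, since fewer peaks enter. A 250 bp window left 6 small subunit genes (23.1% against 20.9%) and a median distance of 77 bp, and a 5 kb window gave 1458 bp and 36 list genes (67.9% against 45.2%); the window bounds the distance by construction. The 4797 strongest regions of 1 replicate in place of the thresholded list gave 29 to 33 members (39.7% to 45.2%). Of these, 20 to 23 were large subunit genes (42.6% to 48.9%) and 9 to 10 small subunit genes (34.6% to 38.5%). The share of all genes was 26.3% to 26.4%. Replicate 4 gave 16 list genes (30.2%, above the 26.3% of all genes) and replicate 3 gave 12 (22.6%, below the 26.4%). Median distances were 143 to 157 bp. The same regions gave 27 to 31 members with a divergent neighbour (46.6% to 53.4% against 40.9% to 42.2% of all such genes) and 2 without one (13.3%, below the 18.3% to 18.8% of all such genes). Either replicate alone gave a relaxed region at 64 members in place of the 58 found in both. A DRE with 1 end base dropped was found at 24 member promoters (32.9% against 17.7% of all). With the neighbour limited to 500 bp, an alternative chosen after seeing the data, 5 members without a neighbour had a peak (25.0% against 21.7%). In all, 68 of these values stayed within the limit and 11 did not, and of the counts for single lists and ranks of single genes 100 did and 81 did not. At an overlap of 50%, 66 of the 70 replicate regions were kept. No paired analysis was possible because there was 1 group. With 2 replicates, lists cut at 30000 regions and no read counts, differences in depth between replicates could not be measured.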
